A study of Mus musculus with 6 samples.

Results

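Retinal ganglion cells (RGCs) of the early postnatal mouse retina were selected on their own transcripts in 2 single-cell RNA-seq (scRNA-seq) libraries, P0 and P3 replicate 2. A cell was a member when it held 1 or more UMI of at least 3 of the 6 genes *Pou4f1*, *Pou4f2*, *Nefl*, *Nefm*, *Sncg* and *Rbpms*, and no UMI of the amacrine gene *Tfap2b* or the proliferation gene *Mki67*. A UMI (unique molecular identifier) counts 1 captured transcript molecule. The rule found 240 members among 10427 kept cells at P0 and 371 among 3238 in P3 replicate 2, together 611 of 13665 cells in these libraries and of 58275 kept cells in the series. The retinas came from wild-type C57BL/6J mice in every group. Neurosensory retinas of 1 age were pooled, dissociated with papain, sorted by FACS for live single cells (scatter and DAPI) and loaded on the 10x Genomics platform. Each library pools animals and is 1 sample. Single libraries at E14 and E16 served as the embryonic comparison, and the other P3 library (P3 replicate 1) and P6 completed the series.

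RGCs are the projection neurons of the retina. They leave the cell cycle early in retinal neurogenesis, send axons through the optic nerve and release glutamate onto their targets in the brain. *Pou4f2* and *Isl1* encode transcription factors that act downstream of the proneural factor Atoh7 in RGC differentiation, and *Pou4f1* and *Pou4f3* are paralogues of *Pou4f2* that are used in RGC subtypes. *Nefl* and *Nefm* encode neurofilament subunits, *Sncg* encodes gamma-synuclein, and *Rbpms* encodes an RNA-binding protein that labels RGCs throughout the retina. In the first days after birth many RGCs die, and the survivors acquire the ion channels, synapses and subtype programmes of mature cells.

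Among cells without *Tfap2b* and *Mki67* UMIs, the number of rule genes detected had a low point near the threshold. At P0, 3143 cells held none of the 6 genes, 652 held 1, 81 held 2, 13 held 3, 14 held 4, 100 held 5 and 113 held all 6. In P3 replicate 2 the same counts were 408, 135, 27, 31, 104, 160 and 76. Cells just inside the threshold held more ganglion transcripts than cells just outside it. *Gap43*, the growth cone protein, stood at 1585 CPM (UMIs of the gene per 1000000 UMIs) in the P0 cells with 3 rule genes against 83.6 CPM in those with 2. In P3 replicate 2 *Gap43* stood at 1448 against 193 CPM. The P0 cells with 3 rule genes also held 861 CPM of *Ccnd1*, the progenitor cyclin, against 14.5 CPM in the 14 cells with 4 rule genes. Their median depth was 3219 UMIs, and it was 5625 UMIs in the cells with 2.

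**Figure D1:**
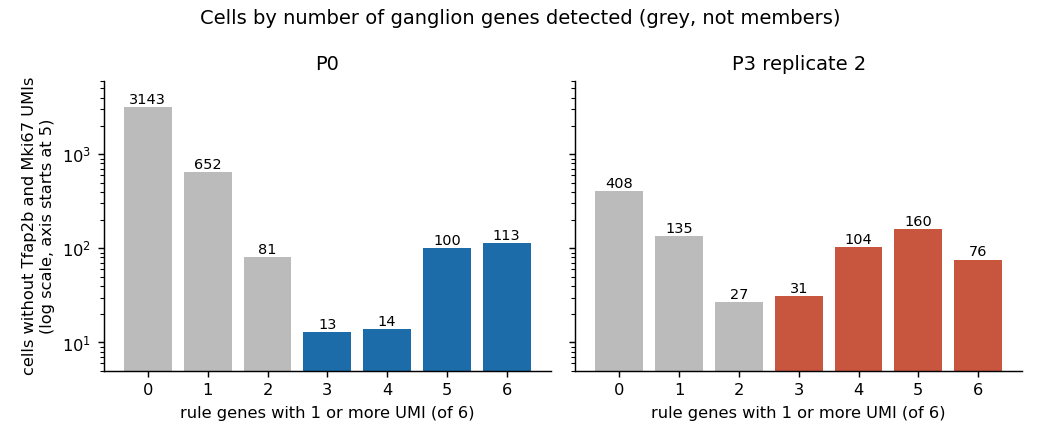
Number of kept cells without *Tfap2b* and *Mki67* UMIs (y axis, log scale starting at 5) by the number of the 6 rule genes with 1 or more UMI (x axis), for P0 and P3 replicate 2. Grey bars are not members and coloured bars are members. Both libraries dip next to the threshold, with 13 cells at 3 genes at P0 and 27 cells at 2 genes in P3 replicate 2.

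The *Tfap2b* and *Mki67* conditions removed 67 of the 307 P0 cells with 3 or more rule genes and 267 of the 638 such cells in P3 replicate 2. In P3 replicate 2, 232 of the 267 held *Tfap2b*, 138 held *Mki67* and 103 held both. That library had *Tfap2b* UMIs in 47.0% and *Mki67* UMIs in 47.3% of all kept cells, against 21.2% and 42.7% at P0. The removed cells were deep, with medians of 17167 UMIs at P0 and 11615 in P3 replicate 2, and those of P3 replicate 2 held 699 CPM of *Sncg*. The member counts therefore leave out ganglion-gene-positive cells in both libraries, and the share left out was 21.8% at P0 and 41.8% in P3 replicate 2.

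Members made up 2.30% of kept cells at P0 (exact 95% Clopper-Pearson interval 2.02 to 2.61%) and 11.5% in P3 replicate 2 (10.4 to 12.6%). Intervals here and below cover counting error only. Applied unchanged, the rule found 2702 of 15716 cells at E14 (17.2%), 1009 of 2971 at E16 (34.0%), 3 of 12305 in P3 replicate 1 (0.0244%, 0.00503 to 0.0712%) and 2 of 13618 at P6 (0.0147%). *Pou4f2* had 0 UMIs in P3 replicate 1 and at P6, which allows shares of cells with a UMI of up to 0.0244% and 0.0220%, and 224 of 3238 cells held it in P3 replicate 2. *Sncg* was detected in 11 cells of P3 replicate 1 and in 1003 of P3 replicate 2. The P3 pair therefore stood far apart, and only P3 replicate 2 holds enough members to describe. The barcodes shared between libraries numbered 0 for P0 and P3 replicate 2 and 20 for E16 and P3 replicate 2.

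Depth differed between members and other cells, and in opposite directions in the 2 libraries. At P0 the members had a median of 15823.5 UMIs and 4317.5 genes against 5589 UMIs and 2273 genes in other cells. In P3 replicate 2 they had 4748 UMIs and 2101 genes against 6551 UMIs and 2614 genes. A limit of fewer than 4000 genes per cell, which the study applied, would remove 150 of the 240 P0 members and none of the 371 in P3 replicate 2. The shallowest member of P3 replicate 2 had 3477 UMIs, as did the shallowest other cell, while P0 members reached down to 775 UMIs. Mitochondrial UMIs made up a median 5.27% in members and 5.10% in other cells at P0, and 6.78% and 4.12% in P3 replicate 2. The part of these differences in the levels below was not tested.

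The rule genes chose the cells, so their levels are given as a description. *Sncg* had a UMI in 238 of 240 members at P0 and 369 of 371 in P3 replicate 2, with medians of 44.5 and 20 UMIs per member. *Nefl* was detected in 232 and 367 members, and *Nefm* in 234 and 284. *Rbpms* was detected in 232 and 319 members. *Pou4f1* (chr14:104461676-104467999, minus strand, GRCm38) was detected in 205 members at P0 and 292 in P3 replicate 2, and *Pou4f2* (chr8:78433010-78436645, minus strand) in 132 and 134. Other cells carried these genes too, with *Sncg* in 4.29% of them at P0 and 22.1% in P3 replicate 2, and *Pou4f1* in 146 of 10187 of them at P0 and 315 of 2867 in P3 replicate 2. In P3 replicate 2 the level of *Sncg* in other cells was 115 CPM against 40.3 CPM at P0.

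The *Pou4f* paralogues overlapped in part. At P0, *Pou4f1* and *Pou4f2* were both detected in 113 of 240 members (47.1%), and in P3 replicate 2 in 96 of 371 (25.9%). *Pou4f1* was the only paralogue detected in 63 members at P0 and 129 in P3 replicate 2, and *Pou4f2* the only one in 15 and 37. *Pou4f3*, which the rule did not use, was detected in 93 P0 members and 103 members of P3 replicate 2. All 3 paralogues were found together in 54 and 22 members, and none of them in 10 and 28. The 10 P0 members without a paralogue had a median of 4570.5 UMIs, against 16141 in the 230 with one, and the part of depth in this was not tested. The lower share of double detection in P3 replicate 2 likewise went with its lower depth per member.

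Levels of all other genes were compared between members and other kept cells as CPM of summed UMIs, over 9728 genes with at least 200 UMIs in each library. A gene was counted where the ratio reached 2 in both libraries. This held for 1011 genes in the direction higher in members (10.4% of genes compared) and for 1344 with a ratio of 0.5 or less (13.8%). Within single libraries 1396 genes at P0 and 1337 in P3 replicate 2 reached 2-fold higher, and the median ratio over all genes was 0.904 and 0.889. No test was made, because the members were chosen on ganglion genes and each library is 1 sample.

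**Figure D2:**
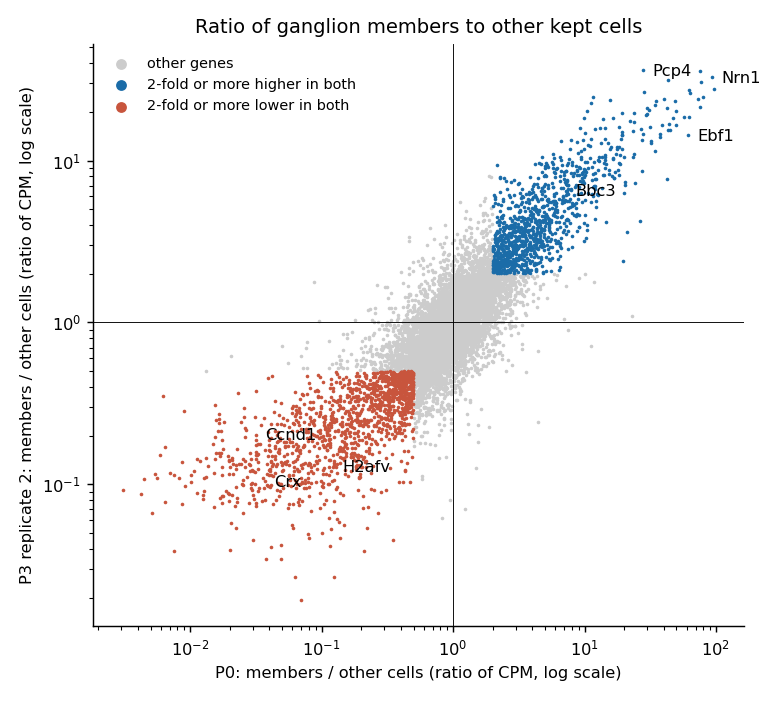
Ratio of members to other kept cells at P0 (x axis) and in P3 replicate 2 (y axis), both as ratios of CPM on log scales, 1 point per gene. Blue points are genes at 2-fold or more higher and red points genes at 2-fold or more lower in both libraries. Of the genes plotted, 9696 are drawn and 40 with a level of 0 on either side are not. *Nrn1*, *Pcp4* and *Ebf1* lie at the upper right, and *Ccnd1*, *H2afv* and the photoreceptor gene *Crx* at the lower left.

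The 20 genes with the largest ratio outside the rule, by the lower of the 2 libraries and at 50 CPM or more in members of both, were led by *Mstn*, *Nrn1*, *Lgals7*, *Pou4f3* and *Irx2*. *Mstn*, which encodes the growth factor myostatin, stood at 270 CPM in P0 members against 2.99 in other cells, and at 54.1 against 1.60 CPM in P3 replicate 2. *Nrn1*, which encodes the GPI-anchored growth protein neuritin, stood at 158 CPM (exact Poisson interval 146 to 172) against 1.70 CPM at P0, and at 299 CPM (275 to 325) against 9.15 CPM in P3 replicate 2. Its ratio was 93.3 (75.8 to 116) at P0 and 32.7 (28.3 to 37.9) in P3 replicate 2. *Igf1*, which encodes insulin-like growth factor 1, stood at 99.8 against 1.03 CPM at P0 and 302 against 10.9 CPM in P3 replicate 2. *Scn9a*, a voltage-gated sodium channel gene, had ratios of 63.5 and 26.1. *Slc18a2*, the vesicular monoamine transporter gene, had ratios of 31.0 and 20.6. Others of the 20 were *Pcp4*, *Thy1*, *Slc17a6*, *Tmem163*, *Irx4*, *Gm26632*, *Snhg11*, *Rbpms2*, *Lrfn5*, *Lrp1b* and *Resp18*. *Mstn*, *Irx2* and *Irx4* fell under the minimum of 200 UMIs in 1 library and were not among the 9728 genes.

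**Figure D3:**
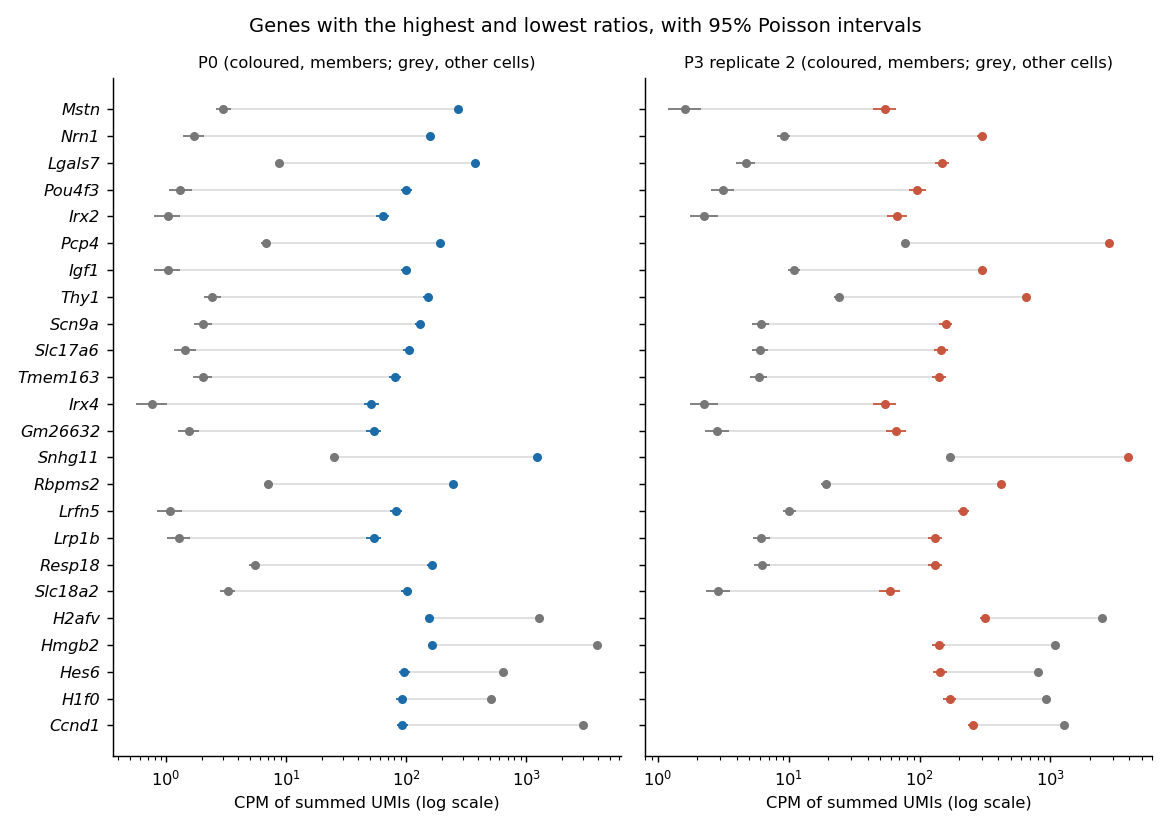
CPM of summed UMIs (x axis, log scale) in members (coloured) and other kept cells (grey) at P0 and in P3 replicate 2, for 19 of the 20 genes with the largest and the 5 with the smallest ratio. Bars are 95% Poisson intervals. In both libraries members lie above other cells for the first 19 genes and below them for the last 5, and *Pcp4* members differ most between the libraries, at 192 and 2799 CPM.

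*Slc17a6* encodes the vesicular glutamate transporter VGLUT2, the transporter that RGCs use. Its sequence is shown because it was the only one of the 14 of these 20 genes found in a RefSeq promoter table (GRCm38.p6, 250 bases before to 50 after a start) to hold the letters ATTAAT, a core of sites that POU4F factors bind. The capitals mark the match, which reads the same on either strand.
*Slc17a6* promoter, chr7:51624387-51624686, plus strand: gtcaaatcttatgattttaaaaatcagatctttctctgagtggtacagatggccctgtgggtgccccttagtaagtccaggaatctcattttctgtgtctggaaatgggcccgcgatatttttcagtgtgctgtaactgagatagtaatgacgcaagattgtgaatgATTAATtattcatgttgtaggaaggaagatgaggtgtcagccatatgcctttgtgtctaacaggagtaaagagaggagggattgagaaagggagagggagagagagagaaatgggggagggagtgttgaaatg
ATTAAT was found in a promoter window of 5.51% of all 27025 genes in the table, of 2.58% of the 7792 matched genes compared here, and of 4.24% of the 779 matched genes that were 2-fold or more higher in members of both libraries. These are shares of letters in a window, without a test.

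Of the 28 listed ganglion transcription factor genes, 21 had enough UMIs to compare, and 10 were 2-fold or more higher in members of both libraries and none lower (background 10.4%). The median ratio was 3.01 at P0 and 4.16 in P3 replicate 2. *Pou4f3* stood at 101 CPM in P0 members and 96.2 CPM in P3 replicate 2 members, against 1.31 and 3.14 CPM in other cells. *Isl1*, the LIM-homeodomain partner of POU4F2, stood at 534 CPM (510 to 558) and 223 CPM (203 to 245), 7.50 and 7.11 times other cells. *Ebf1*, a helix-loop-helix factor, stood at 1681 and 1270 CPM in members against 27.2 and 88.7 CPM in other cells, and *Ebf3* had ratios of 42.7 and 7.67. The Iroquois factor genes *Irx2* and *Irx6* had ratios of 62.0 and 29.8, and of 19.3 and 14.9, with *Irx2* under the UMI minimum for the count. *Sox4*, *Sox11* and *Onecut2*, which are also used by other young neurons, had ratios of 0.789 to 1.57. *Atoh7* stood at 18.6 CPM in P0 members against 112 CPM in other cells, and it had no UMI in P3 replicate 2 members and 0.131 CPM in other cells there. *Atoh7* also stood at 549 CPM at E14 and 2.35 CPM at E16. It was thus near 0 in both libraries of the older file layout, which are also the later age of each stage.

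Of the 23 listed axon cytoskeleton and growth genes, 19 of 21 compared were higher in members of both libraries and none lower (10.4% of all genes compared were higher and 13.8% lower), with median ratios of 11.9 at P0 and 7.83 in P3 replicate 2. *Thy1* (chr9:44043384-44048579, plus strand), a surface glycoprotein used to mark RGCs, stood at 151 and 657 CPM in members against 2.42 and 24.0 CPM in other cells. *Gap43* stood at 4235 and 1908 CPM in members against 94.2 and 124 CPM in other cells. *Cend1*, a regulator of neuronal cell cycle exit, had ratios of 19.4 and 19.7, and *Stmn4*, a stathmin that binds tubulin, ratios of 17.6 and 12.2. *Stmn1* and *Map2* were the 2 compared genes not counted, with ratios in P3 replicate 2 of 1.88 and 1.93.

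Of 26 compared axon guidance and adhesion genes, 9 were higher, 1 was lower and 16 were neither (10.4% of all genes compared were higher and 13.8% lower). The adhesion genes *Chl1*, *Alcam* and *L1cam* were among the higher genes, with ratios of 49.2, 12.9 and 24.2 at P0 and of 16.7, 10.6 and 7.24 in P3 replicate 2. *Islr2*, a neuronal adhesion gene, had ratios of 8.59 and 5.46. The gene that was lower was *Plxna2*, a semaphorin receptor gene, at 17.8 and 18.2 CPM in members against 52.5 and 68.5 CPM in other cells. The receptor genes *Robo1*, *Epha5* and *Ephb2* lay between ratios of 0.473 and 1.50 in both libraries. *Dcc* stood at 34.0 CPM in P0 members and 4.16 in P3 replicate 2 members and stood at 104 and 3.38 CPM at E14 and E16. It was again low in both libraries of the older layout and later age.

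Synaptic, channel and receptor genes were counted against the same shares of all genes, 10.4% higher and 13.8% lower. For synaptic transmission, 14 of 20 compared genes were counted as higher and none as lower. *Slc17a6* stood at 105 CPM (94.5 to 116) in P0 members and 146 CPM (129 to 164) in P3 replicate 2 members against 1.44 and 6.04 CPM in other cells. *Cplx1*, *Syt4* and *Syn2*, which act at the synaptic vesicle (*Syn2* under the UMI minimum), had ratios of 16.5, 32.1 and 21.3 at P0 and of 10.4, 12.8 and 14.0 in P3 replicate 2. *Slc17a7*, the other vesicular glutamate transporter gene of the list, stood at 0.274 and 2.60 CPM in members and was higher in other cells, at 1.76 and 28.6 CPM. Of 14 compared voltage-gated channel genes, 7 were counted as higher and none as lower. The sodium channel genes *Scn2a* and *Scn3b* had ratios of 18.3 and 18.5 at P0 and of 12.1 and 9.51 in P3 replicate 2. *Kcnd2*, a potassium channel gene under the UMI minimum, had ratios of 40.7 and 14.9. Of 16 compared transmitter receptor genes, 14 were counted as higher and none as lower. The nicotinic receptor subunit genes *Chrna6* and *Chrnb3*, both under the UMI minimum for the count, had ratios of 59.2 and 62.0 at P0 and 18.7 and 15.3 in P3 replicate 2. *Chrna6* was 17.8 CPM at P0 and 42.6 CPM in P3 replicate 2, and *Chrnb3* was 63.9 and 35.9 CPM.

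Among 14 compared trophic factor and receptor genes, 5 were higher, 1 was lower and 8 were neither (10.4% of all genes compared were higher and 13.8% lower). *Igf1* and *Pdgfa*, which encode secreted growth factors, and *Ntrk2* and *Ntrk3*, which encode neurotrophin receptors, were among the higher genes. *Pdgfa*, the platelet-derived growth factor gene to which retinal astrocytes respond, stood at 29.6 and 83.7 CPM in members against 2.34 and 8.30 CPM in other cells. *Ntrk2* was 43.1 and 43.7 CPM in members, 5.95 and 5.05 times other cells. *Gfra1*, a GDNF co-receptor gene, was the lower one, at 1.37 and 2.60 CPM against 21.2 and 9.28 CPM.

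Of 14 compared apoptosis genes, 1 was higher, 2 were lower and 11 were neither, shares near those of all genes compared (10.4% higher and 13.8% lower). The higher gene was *Bbc3*, which encodes the pro-apoptotic BH3-only protein PUMA. It stood at 88.8 CPM (79.4 to 99.1) in P0 members and 120 CPM (105 to 137) in P3 replicate 2 members, 7.31 and 6.52 times other cells. The lower genes were *Bcl2l11*, which encodes the BH3-only protein BIM, with ratios of 0.104 and 0.243, and the survival gene *Bcl2*, with ratios of 0.380 and 0.437. *Hrk*, another BH3-only gene, stood at 31.5 CPM (26.0 to 37.9) in P0 members and 4.68 CPM (2.14 to 8.89) in P3 replicate 2 members, and at 8.80 and 9.56 CPM in E14 and E16 members.

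The 5 genes with the smallest ratios were *H2afv*, *Hmgb2*, *Hes6*, *H1f0* and *Ccnd1*, which include chromatin proteins, a neurogenic factor and the progenitor cyclin. *Ccnd1* stood at 93.2 CPM in members against 2960 CPM in other cells at P0, and at 258 against 1274 CPM in P3 replicate 2. *Hmgb2*, a chromatin protein of dividing cells, stood at 165 against 3931 CPM and at 140 against 1081 CPM.

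The marker lists of other retinal cells bear on how clean the members were. The 9 progenitor markers summed to 203 CPM in P0 members, 3.62% of their level in other cells, and to 455 CPM in P3 replicate 2 members, 16.9% of it. The 12 photoreceptor markers summed to 32.9 CPM at P0 (4.70%) and 446 CPM in P3 replicate 2 (12.5%), where 63.6% of members held a photoreceptor UMI against 16.2% of P0 members. None of the 371 members had more than 1% of its UMIs in these genes, and only 198 of the 2867 other cells there did. *Crx* stood at 27.6 CPM in members of P3 replicate 2 and *Nrl*, the rod factor, at 35.9 CPM, and they stood at 1.37 and 2.19 CPM in P0 members. The amacrine list summed to 97.3 and 180 CPM in members, 34.2% and 63.1% of its level in other cells. *Tfap2a*, *Gad1* and *Slc32a1*, the defining amacrine genes, were at 1.65, 0.274 and 0.274 CPM in P0 members and at 9.36, 4.68 and 3.64 CPM in P3 replicate 2 members. The 6 horizontal cell markers summed to 365 CPM at P0, 106% of their level in other cells, and to 197 CPM in P3 replicate 2 (41.6%). In members of both libraries 5 of these 6 markers had a UMI, and only *Lhx1* was at 0. The sum of this list therefore did not set members apart from other cells at P0. The bipolar list summed to 118 and 200 CPM (392% and 454%), nearly all of it *Car10*, with *Vsx1* and *Grm6* at 0 in both. The neurogenic precursor list stood at 12.1% and 20.4% and the Mueller glia list at 16.3% and 23.4% of other cells. The astrocyte list reached 3.02 and 8.32 CPM (38.9% and 44.7%) with *Gfap* at 0, and the microglia list 0 and 2.60 CPM (19.7% in P3 replicate 2). The vascular list reached 1.37 and 22.4 CPM against 36.1 and 23.6 CPM in other cells, and the red blood cell list 0 and 2.08 CPM (89.7% in P3 replicate 2). The part of these transcripts in the members' profile was not tested.

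Members were heterogeneous in subtype genes. Of the 28 listed subtype markers, 12 had enough UMIs to compare, 4 of them were higher and 4 lower than in other cells (10.4% of all genes compared were higher and 13.8% lower). The higher genes were *Calb2*, *Gal*, *Tac1* and *Cartpt*. *Calb2*, which encodes the calcium-binding protein calretinin, was detected in 193 of 240 P0 members and 255 of 371 in P3 replicate 2. *Gal*, the galanin gene, was detected in 131 and 83 members, *Tac1*, a tachykinin gene, in 73 and 56, and *Cartpt*, a neuropeptide gene of direction-selective RGCs, in 11 and 26. In cells with none of the rule genes, *Cartpt* had a UMI in 0.306% at P0 and in 3.42% in P3 replicate 2, against 4.58% and 7.01% of members. The lower genes were *Jam2*, *Nmb*, *Igfbp4* and *Cdhr1*, each also present in the other cells. *Spp1* and *Kcng4*, markers of adult alpha RGCs, were detected in 1 and 0 members at P0 and in none of the 371 members of P3 replicate 2, which allows a share of cells with a UMI, not of cells expressing the gene, of up to 0.809%.

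Several transcription factors were detected in small groups of members. *Foxp2* was detected in 33 P0 members and 45 in P3 replicate 2, *Neurod2* in 53 and 40, *Tbr1* in 12 and 23, *Tbx20* in 7 and 15 and *Eomes* in 15 and 56. In cells with none of the 6 rule genes, with median depths of 5391.5 and 5740 UMIs, *Foxp2* was found in 7.37% and 7.73%, *Tbr1* in 0.306% and 0.697% and *Eomes* in 2.30% and 2.15%. After thinning to 2000 UMIs per cell, which kept 237 P0 members and 371 of P3 replicate 2, *Foxp2* was found in 3.80% and 7.28% of members against 2.45% and 1.90% of thinned cells with no rule gene. *Eomes* was found in 3.38% and 8.36% of members against 1.20% and 0.823%, and *Neurod2* in 5.49% and 6.20% against 0.303% and 4.94%. *Neurod2* was also found in 14.3% of the cells with no rule gene in P3 replicate 2 before thinning, above its 10.8% of members there, and its share is read as background in that library. *Pou4f1*, a rule gene, was held by 32 of 33 members with *Foxp2* and 173 of 207 without it at P0, and by 43 of 45 and 249 of 326 in P3 replicate 2. *Pou4f1* was held by 11 of 12 members with *Tbr1* and 194 of 228 without it at P0, and by 22 of 23 and 270 of 348 in P3 replicate 2. The intervals of these shares overlap in both libraries for *Tbr1* and at P0 for *Foxp2*.

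*Eomes* (chr9:118478212-118486132, plus strand), which encodes a T-box factor needed for intrinsically photosensitive RGCs, separated members most clearly. At P0, 10 of 15 members with an *Eomes* UMI held *Opn4*, the melanopsin photopigment gene, and 0 of 225 members without one did. In P3 replicate 2, 26 of 56 members with *Eomes* held *Opn4* (46.4%, 33.0 to 60.3%), against 3 of 315 without (0.952%, 0.197 to 2.76%). *Tbx20*, another T-box gene, was found in 7 of 15 against 0 of 225 members at P0, and in 10 of 56 against 5 of 315 in P3 replicate 2. *Pou4f1* showed the opposite pattern, with 1 of 15 against 204 of 225 members at P0 and 21 of 56 against 271 of 315 in P3 replicate 2. *Pou4f2* was found in 10 of 15 and 122 of 225 members at P0 and in 35 of 56 and 99 of 315 in P3 replicate 2. Median depths were 13832 and 15932 UMIs at P0 and 5495 and 4710 in P3 replicate 2, for members with and without *Eomes*. Because *Pou4f1* and *Pou4f2* are rule genes, members had to hold other ganglion genes where these were missing.

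**Figure D4:**
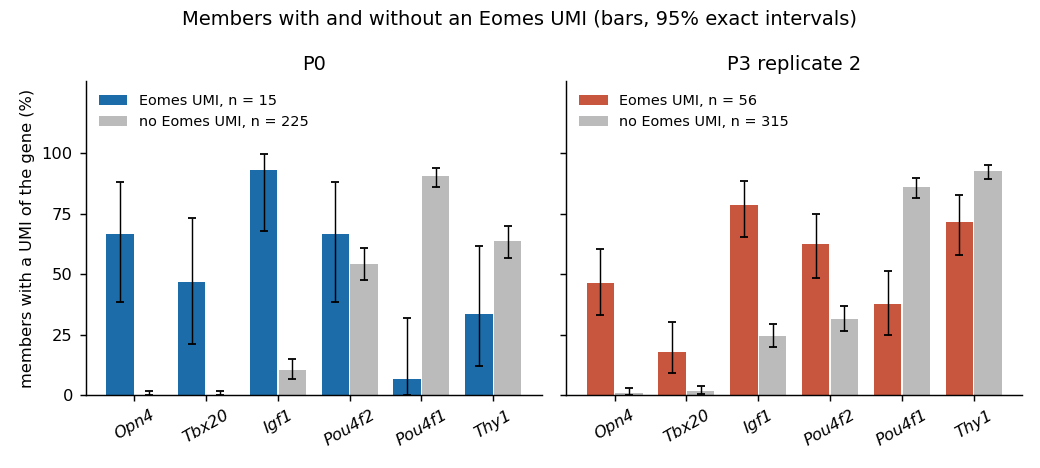
Percent of members with 1 or more UMI of each gene (y axis, from 0), for members with an *Eomes* UMI (coloured) and without one (grey), at P0 (n = 15 and 225) and in P3 replicate 2 (n = 56 and 315). Bars are shares with exact 95% intervals. *Opn4*, *Tbx20* and *Igf1* are more frequent and *Pou4f1* and *Thy1* less frequent with *Eomes* in both libraries, though the intervals of *Thy1* overlap at P0.

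*Igf1* divided the members in the same way. It was found in 14 of 15 P0 members with *Eomes* and 23 of 225 without, and in 44 of 56 and 77 of 315 in P3 replicate 2. Summed over members, *Igf1* stood at 1342 CPM with and 23.9 CPM without *Eomes* at P0, and at 928 and 171 CPM in P3 replicate 2. *Igf1* had the largest ratio, by the lower of the 2 libraries, of the 2936 genes ranked, which did not include *Opn4*. *Mast4*, *Synpr*, *Zeb2* and *Kitl* followed, with P0 ratios of 13.3, 53.5, 8.41 and 9.19 and ratios in P3 replicate 2 of 5.22, 5.20, 4.18 and 3.71. *Pcp4*, which encodes a calmodulin-binding peptide, stood at 1028 against 141 CPM at P0 and at 6465 against 2029 CPM in P3 replicate 2. On the other side, *Cartpt* had no UMI in *Eomes* members of either library, *Isl2* had 0 and 1 UMIs, and *Pou4f3* 0 and 2. These are descriptions of the same cells, chosen after their values were seen, and each library is 1 sample.

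Postnatal members were set against embryonic ones chosen by the same rule, with UMIs summed over members and each library as 1 sample, E14 and E16 (n = 2) against P0 and P3 replicate 2 (n = 2). In edgeR's quasi-likelihood test over 11914 genes, none was called higher and none lower at an adjusted p of 0.05 (0% called in each direction). The smallest adjusted p was 0.630, 921 genes had an unadjusted p under 0.05, and DESeq2 called 73 genes higher and 31 lower. The libraries differed along a second axis, since E14 and P0 were counted on a newer annotation and file layout than E16 and P3 replicate 2. Across genes, the log2 CPM of members correlated more closely between E16 and P3 replicate 2 (r = 0.920) than between P0 and P3 replicate 2 (r = 0.865), while E14 correlated equally with E16 of its own stage and P0 of its own layout (r = 0.906 for both), and genes are not independent replicates. Each stage has 1 library of each layout, and in both stages the older layout is the later age. Layout and age within a stage therefore cannot be told apart, and a block for layout takes out both. With the layout as a block, 959 genes were called higher (8.05%) and 495 lower (4.15%), on 1 residual degree of freedom per gene and a spread shared over genes. In the unblocked fit, leaving out E14 gave 65 and 5 calls and leaving out E16 gave 316 and 79, while leaving out P0 or P3 replicate 2 gave none. Within the layout pairs, P0 over E14 and P3 replicate 2 over E16, 744 genes were 2-fold or more higher in both pairs on the log2(CPM + 1) scale (6.24%) and 170 lower (1.43%). The values below are therefore given per library, with the adjusted p of the blocked edgeR fit, and the unblocked edgeR fit calls none of them.

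**Figure D5:**
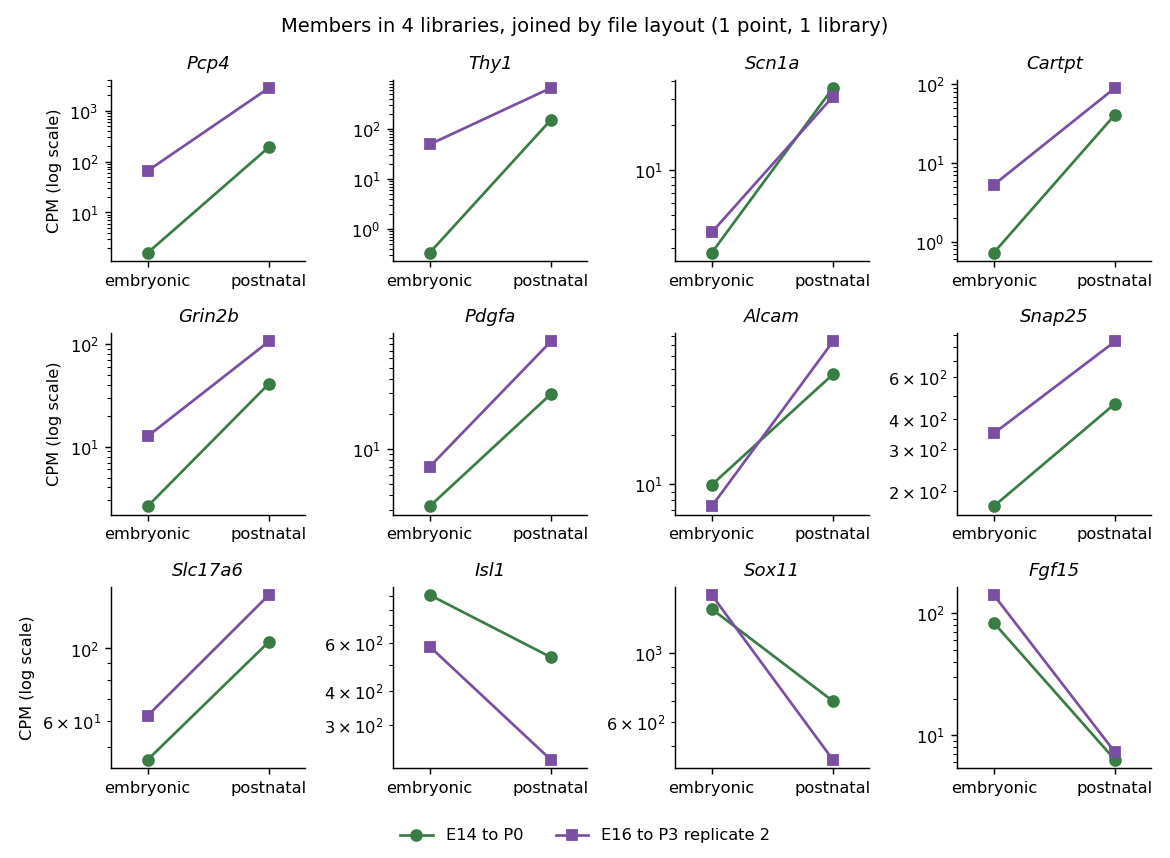
Level in members of 12 genes (y axis of each panel, CPM on a log scale that differs between panels) in the embryonic and postnatal libraries, 1 point per library, joined within a file layout (circles, E14 to P0, and squares, E16 to P3 replicate 2). The first 9 genes are higher and the last 3 lower in the postnatal library of both pairs. *Thy1* goes from 0.334 to 151 CPM and from 49.1 to 657 CPM.

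*Pcp4* showed the largest difference among genes at 50 CPM or more in both postnatal libraries. Its level was 1.62 and 66.0 CPM in E14 and E16 members and 192 and 2799 CPM in those of P0 and P3 replicate 2 (log2 fold change with the block 5.90 ± 0.38 SE, edgeR adjusted p = 0.000107, and 0.640 without the block). The postnatal libraries were both above the embryonic ones. The share of members with a *Pcp4* UMI was 32.9% at P0 and 79.8% in P3 replicate 2, and after thinning to 2000 UMIs it was 16.0% and 69.8%. *Thy1* was 0.334, 49.1, 151 and 657 CPM in the same order (log2 fold change 5.29 ± 0.82 SE, edgeR adjusted p = 0.00319 with the block). It was detected in 61.7% of P0 members and 89.5% of P3 replicate 2 members, and in 24.9% and 69.0% after thinning. *Sncb*, which encodes beta-synuclein, *Hpca*, which encodes the calcium sensor hippocalcin, and *Vsnl1*, which encodes a related sensor, followed with log2 fold changes of 3.39, 3.41 and 3.39. The 15 genes with the largest increases also included *Cpne4*, *Opcml*, *Ralyl*, *Negr1*, *Lgals7*, *Rora*, *Tln2*, *Mdga2* and *Adcy1*.

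Excitability and synapse genes made up much of the listed genes that were higher after birth in the blocked fit, where 8.05% of all genes were. This held for 14 of 23 tested voltage-gated channel genes, for 16 of 25 transmitter receptor genes and for 13 of 21 synaptic genes, and *Chrna3* was the only gene of these 3 lists called lower. Within the layout pairs, 13, 14 and 10 of these genes were 2-fold or more higher in both. *Scn1a*, a sodium channel gene, was 2.79 and 3.82 CPM in the embryonic and 35.6 and 31.2 CPM in the postnatal libraries, which did not overlap. *Grin2b*, an NMDA receptor subunit gene, was 2.62, 12.6, 41.1 and 107 CPM in the same order (log2 fold change 3.37 ± 0.29 SE, edgeR adjusted p = 0.000199 with the block). *Gria2*, an AMPA receptor subunit gene, was 38.8, 56.8, 131 and 197 CPM, and *Chrna6* 0.0557, 4.70, 17.8 and 42.6 CPM. *Slc17a6* was 45.7, 62.3, 105 and 146 CPM and *Snap25*, the SNARE gene, 172, 348, 463 and 846 CPM. *Vamp2*, another SNARE gene, was 85.7 and 260 CPM in the embryonic libraries and 178 and 612 CPM in the postnatal ones, which overlap.

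Transcription factor genes were called in both directions, 6 of 28 tested higher and 8 lower in the blocked fit (8.05% and 4.15% of all genes). *Tbr1* was 0.334 and 2.50 CPM in E14 and E16 members and 6.86 and 15.6 CPM in those of P0 and P3 replicate 2. In the same order *Foxp2* was 3.45, 28.5, 35.6 and 59.3 CPM. *Neurod2* was 0.0557, 3.38, 31.8 and 31.2 CPM, and its level in P3 replicate 2 members was close to the 28.6 CPM of the other cells there, which is read as background. *Myt1l*, which represses non-neuronal genes, and *Irx6* were also called higher. *Irx6* was 26.6, 60.0, 48.5 and 119 CPM, values that overlap between the stages. *Isl1* was 906, 584, 534 and 223 CPM (log2 fold change -1.19 ± 0.24 SE, edgeR adjusted p = 0.0112 with the block). *Sox11* was 1386 and 1538 CPM in the embryonic and 698 and 451 CPM in the postnatal libraries, and *Onecut2* 307 and 122 CPM against 34.3 and 68.1 CPM. *Dlx1* and *Dlx2*, which are used in ganglion and amacrine precursors, were 24.0 and 14.9 CPM at E14 and 3.02 and 2.74 CPM at P0, within the newer layout. They were 7.20 and 6.18 CPM at E16 and 0.520 and 0 CPM in P3 replicate 2, within the older one. *Irx2*, *Irx3* and *Atoh7* were the other genes called lower, and the values of *Irx3* and *Atoh7* overlap between the stages. *Pou4f3* was 23.5, 78.1, 101 and 96.2 CPM and was not called.

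In the other lists smaller shares were called than in the channel, receptor and synaptic lists, against the same 8.05% higher and 4.15% lower of all genes. For axon guidance and adhesion, 7 of 31 tested genes were called higher and 2 lower. *Alcam* was 9.92 and 7.35 CPM in the embryonic and 46.6 and 73.9 CPM in the postnatal libraries, and *Cntn2*, a contactin gene of growing axons, was 149 and 125 CPM against 60.1 and 13.0 CPM. For the axon cytoskeleton, *Thy1*, *Kif5a* and *Cend1* of 23 tested genes were called higher and *Tubb3* and *Prph* lower, with overlapping values for *Tubb3*. *Gap43* was 4531, 4238, 4235 and 1908 CPM and was not called. Of 18 trophic genes, *Pdgfa*, *Ntrk3* and *Igf1* were called higher and *Gfra1*, *Cntfr* and *Ngfr* lower. *Igf1* was 21.3, 123, 99.8 and 302 CPM, values that overlap. *Pdgfa* was 3.23, 7.06, 29.6 and 83.7 CPM (log2 fold change 3.26 ± 0.26 SE, edgeR adjusted p = 0.00015 with the block). *Bak1* was the only apoptosis gene called of 16, at 6.07, 12.6, 11.2 and 36.9 CPM, values that overlap. Of 21 subtype markers, *Cartpt*, *Calb2*, *Opn4*, *Prdm8* and *Cdhr1* were called higher and *Gal* and *Nmb* lower. In P3 replicate 2, *Cdhr1* was found in 8.89% of members against 32.9% of cells with no rule gene. *Prdm8* was found there in 6.20% against 16.7%. At P0 both genes were found in a larger share of members, which were deeper, than of cells with no rule gene. The part of transcripts from other cells in the calls of *Prdm8* and *Cdhr1* was not tested. *Calb2* was 114, 308, 1727 and 686 CPM and *Cartpt* 0.724, 5.29, 41.1 and 90.0 CPM. *Gal* was 320 and 266 CPM in the embryonic and 96.0 and 74.9 CPM in the postnatal libraries.

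Among the 15 genes with the largest decreases in the blocked fit were *Fgf15*, *Igfbpl1*, *Lmo2*, *Cntn2*, *Igfbp2*, *Pou3f1*, *Onecut2*, *Vim*, *Cdkn1c*, *Nhlh2* and *Id3*. The values of *Vim* overlap between the stages. *Fgf15*, a progenitor growth factor gene, was 83.6 and 141 CPM in embryonic members and 6.31 and 7.28 CPM in postnatal ones (log2 fold change -4.09 ± 0.29 SE, edgeR adjusted p = 0.000107 with the block). *Igfbpl1*, a growth factor binding protein gene of young RGCs, was 842, 544, 222 and 50.4 CPM, and *Lmo2* was 108, 67.9, 10.4 and 19.2 CPM. The 9 progenitor markers summed to 728 and 761 CPM in E14 and E16 members and to 203 and 455 CPM in those of P0 and P3 replicate 2, and the photoreceptor markers to 26.5, 81.0, 32.9 and 446 CPM. In summed UMIs a change per cell and a change in which ganglion subtypes were captured cannot be told apart, and the part of transcripts from other cells was not tested.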

How the data were processed

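Per the labels and the methods of the study, the libraries were made from pooled retinas on the 10x Genomics platform, and the authors aligned reads to mm10 and counted UMIs with Cell Ranger. The deposited values are raw UMI counts per gene and barcode. Version 6.1.2 stands in the matrix headers of the newer libraries, E14 and P0 among them, which list 32285 genes. E16 and P3 replicate 2 list 27998 genes, and their version is not given in the sources used here. Library totals ran from 32624738 to 107793173 UMIs.

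Cells needed over 300 genes and a mitochondrial share of UMIs no higher than 15%, with no upper limit on genes, which left 58275 cells. Members were chosen by the rule given in the report. The members, the gene lists and the tests were chosen with earlier results of these data known. Simulated doublets were used to mark likely doublets, which were kept, and left out as an alternative. How many cells were marked was fixed in advance by the number of kept cells. Among those marked were 15 of 240 members at P0 (6.25%, against 8.34% of all kept cells). In P3 replicate 2 they were 8 of 371 (2.16%, against 2.59%). Levels are UMIs summed over cells per 1000000 UMIs, with genes joined by Ensembl identifier over the 27040 identifiers in both annotations. Gene positions are from GENCODE on GRCm38. Poisson intervals are exact. Thinning drew 2000 UMIs per cell.

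Postnatal and embryonic members were compared with edgeR 4.0.16 (quasi-likelihood test, Benjamini-Hochberg adjustment over all genes tested), with DESeq2 1.42.0 as an alternative, in R 4.3.3. Pools of animals are single samples, so p-values of the fit without a block measure the spread between libraries of a stage. With the file layout as a block, they measure only how far the age difference varies between the layouts. That fit leaves 1 residual degree of freedom per gene, with a spread shared over genes. Adjusted p-values of named genes are from that fit unless given as without the block. Genes were named by fixed rules, namely the 20 largest and 5 smallest ratios at 50 CPM or more in members, up to 4 genes per list, and the 15 largest and 15 smallest age differences at 50 CPM or more in both libraries of the higher group. The rule for age asked for genes past the threshold. None passed without the block, so these were taken from the fit with the file layout as a block after the values were seen, as were the genes given for the split by *Eomes*. Some genes that met these rules are not reported here. The statistics were checked on simulated counts.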

Additional observations from a re-analysis of the deposited data

How the results depend on the processing

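The share of members depended on the rule. With fewer than 4000 genes per cell it was 0.908% at P0 and 14.6% in P3 replicate 2, with at least 2 rule genes 3.08% at P0, and without the condition on *Tfap2b* and *Mki67* 2.94% and 19.7%. Thinned to 2000 UMIs, 379 genes were 2-fold or more higher and 623 lower in members, with fewer genes reaching the UMI minimum. The age comparison depended on the fit. Against 0 calls in each direction, DESeq2 gave 73 higher and 31 lower, no filter beyond 1 UMI 281 and 119, the file layout as a block 959 and 495, and a 2-fold difference in both layout pairs, an alternative chosen after seeing the data, 744 and 170. Leaving out 1 library gave 0 to 316 higher and 0 to 79 lower. Leaving out 1 library, the log2 fold change ranged from -14.27 to 1.94 for *Atoh7* and from -3.85 to 2.42 for *Dcc*, both positive without E14, and from -0.071 to 2.08 for *Vamp2*, negative without P3 replicate 2. The cause of these changes was not tested. Of 1114 values of named genes in the age comparison, 852 kept their direction and side of the threshold, 259 passed it only under the alternative and 3 changed sign. All these genes were named for passing in the fit with the block, which is among the alternatives. Part of the 259 was therefore fixed in advance. No paired analysis by replicate number was possible because only the P3 libraries carry such numbers, and the pairs above rest on the file layout alone. With 1 library per age, member profiles have no replicate, and depth limits the shares of cells with a UMI of low genes.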
